A study of Homo sapiens with 4 samples.

Results

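Fatty acid synthesis and desaturation were described through 10 genes: SCD, FASN, ACACA, ACLY, ELOVL1, ELOVL5, ELOVL6, FADS1, FADS2 and ACSL3. They were selected by gene symbol from the 15357 genes of the deposited tables, and 8 of the 10 were among the 11955 genes with enough reads to be tested. The question was whether the lower SCD mRNA level in CHD7 knockdown cells was shared by the rest of the pathway. The genes were listed with the lower SCD level already known from these libraries, so their own changes are given as a description, with standard errors and without p-values.

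RKO is a human colon cancer cell line. All cells were infected with lentivirus to express a short hairpin RNA stably, either a control hairpin (vector, n = 2) or 1 hairpin directed against the mRNA of CHD7, an ATP-dependent chromatin remodeller (shCHD7_2, n = 2), and both groups grew in Eagle's medium with fetal bovine serum. Libraries were made from polyadenylated RNA captured on oligo-dT beads. With a single CHD7 hairpin sequenced, loss of CHD7 and an effect of that hairpin on other mRNAs cannot be told apart. The labels do not say whether the libraries of a group came from separate cultures, so errors and p-values measure only the spread between these libraries, which may be technical.

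New fatty acids are built in the cytosol from citrate. ATP citrate lyase (ACLY) makes acetyl-CoA, acetyl-CoA carboxylase (ACACA) turns it into malonyl-CoA, and fatty acid synthase (FASN) assembles palmitate. Elongases of the ELOVL family lengthen the chain, stearoyl-CoA desaturase (SCD) places the first double bond in a saturated chain to give oleate and palmitoleate, FADS1 and FADS2 desaturate polyunsaturated chains, and ACSL3 joins free fatty acids to coenzyme A. Many of these genes are known targets of the sterol regulatory element-binding proteins, transcription factors encoded by SREBF1 and SREBF2.

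SCD lies on chromosome 10 (chr10:100347124-100364834, plus strand, GENCODE 29 on GRCh38), and its RefSeq promoter window on GRCh38.p14 (chr10:100346983-100347282) is shown because its mRNA had the largest change among the 10 genes. Capitals mark matches to the CCAAT box (CCAAT) and the GC box (GGGCGG) on either strand, and no matched letters overlap.
SCD promoter: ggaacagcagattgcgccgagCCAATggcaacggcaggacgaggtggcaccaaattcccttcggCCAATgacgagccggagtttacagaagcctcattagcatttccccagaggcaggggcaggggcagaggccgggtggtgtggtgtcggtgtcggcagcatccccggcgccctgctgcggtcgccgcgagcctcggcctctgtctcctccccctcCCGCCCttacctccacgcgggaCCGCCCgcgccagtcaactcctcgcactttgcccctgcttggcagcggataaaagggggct
The window holds 66.3% G and C, with CCAAT starting at bases 22 and 65 and the GC box, read on the minus strand, at bases 218 and 240. Of the 9 genes with a promoter entry, 7 hold a CCAAT box in at least 1 window (ACACA, ACLY, ACSL3, ELOVL1, ELOVL5, FADS2 and SCD), against 34.6% of all 35116 RefSeq promoter windows. A GC box is held by 8, all but ELOVL5, against 45.0% of all windows and 66.9% of the 13821 windows of tested genes. The core of the sterol regulatory element (TCACNCCAC, both strands) is in none of the 9. Only 1.13% of all windows hold it, so its absence from so few windows is no result about these genes. The E-box CACGTG is in ELOVL5 alone, against 7.26% of all windows. Several genes have more than 1 window, so gene and window shares are not on the same footing, and the letters say nothing of whether a factor binds.

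The 4 libraries held between 15734666 and 16068642 estimated reads on genes. Levels between libraries are given as CPM (read counts relative to the TMM-scaled library size, n = 2 in each group), and levels between genes as FPKM, which is also scaled by transcript length. CHD7 itself had 85.4 and 91.0 CPM in the vector libraries and 55.5 and 50.1 in the shCHD7_2 libraries, a log2 fold change of -0.74 (SE 0.088, adjusted p = 4.2e-06 from edgeR). Of 12 colon epithelial markers listed, 9 were among the deposited genes, and CDX1, VIL1 and KRT19 were not. EPCAM, CDX2, KRT8 and KRT18 were present. The list summed to 115.4 to 133.9 CPM in each library, of which KRT18 gave 68.5 to 84.5. CDH1, KRT20 and LGR5 had at most 1 read in any library, and CLDN4 and GPA33 at most 3. Fibroblast and adipocyte markers summed to no more than 0.439 and 1.88 CPM per library. The leukocyte list summed to 850.3 to 1025 CPM, nearly all from the lysosomal gene CD68, and to no more than 0.439 without it.

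SCD differed most between the groups among the genes of the pathway. It had 359.0 and 371.1 CPM in the vector libraries and 183.1 and 164.2 CPM in the shCHD7_2 libraries, from 5573, 5858, 2936 and 2620 reads. Both knockdown libraries lay far below both vector libraries. The group means were 365.0 ± 8.54 and 173.7 ± 13.4 CPM (SD, n = 2), a log2 fold change of -1.07 (SE 0.077) or 52.4% less mRNA. This value was lower than that of all but 0.335% of the tested genes, of which 95% had log2 fold changes between -0.54 and 0.62.

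**Figure D1:**
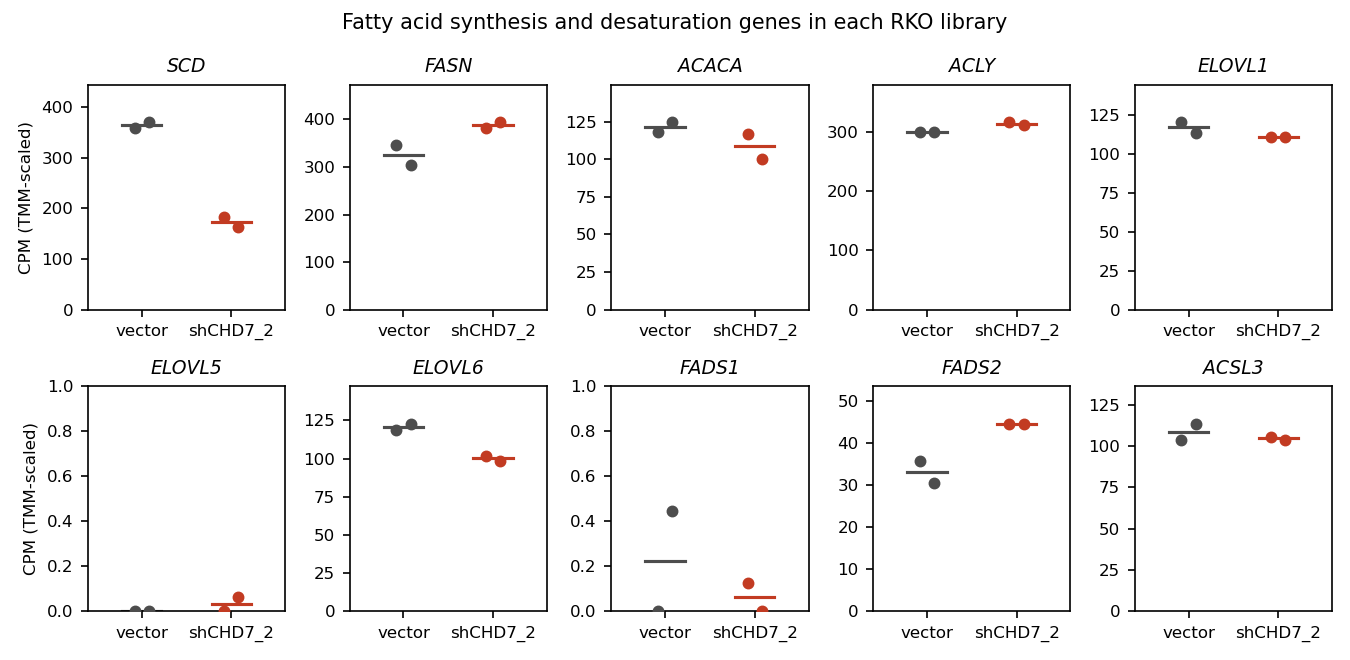
Level of each of the 10 genes in each library, in TMM-scaled CPM on axes that start at 0 and differ between panels; points are libraries and bars are group means (n = 2). The shCHD7_2 points of SCD, at 183.1 and 164.2 CPM, lie far below the vector points at 359.0 and 371.1. No other gene of the set shows a gap of that relative size. The points of ELOVL5 and FADS1, which have at most 7 reads in any library, overlap between the groups.

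The genes that build the chain upstream of SCD differed far less than SCD did, or in the opposite direction. ACLY (chr17:41866908-41930542, minus strand) had 299.8 and 299.1 CPM in the vector libraries and 316.3 and 311.0 in the shCHD7_2 libraries, a log2 fold change of 0.067 (SE 0.071). The ACLY groups did not overlap, but the difference was no larger than its standard error. ACACA (chr17:37084988-37406818, minus strand) had 118.3 and 124.7 CPM in the vector libraries and 116.9 and 100.02 in the shCHD7_2 libraries. Its log2 fold change was -0.16 (SE 0.086) and moved to -0.05 without the second shCHD7_2 library and to -0.28 without the first. On the FPKM scale its groups overlapped, at 12.4 and 13.0 against 12.6 and 10.7.

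FASN was higher in knockdown cells, opposite to SCD. It lies on chromosome 17 (chr17:82078333-82098332, minus strand) and had 346.8 and 304.6 CPM in the vector libraries and 381.5 and 394.6 CPM in the shCHD7_2 libraries, a log2 fold change of 0.25 (SE 0.076), which was 0.35 without vector replicate 1 and 0.16 without vector replicate 2. Both knockdown libraries were above both vector libraries, and the vector libraries differed by more from each other than the knockdown libraries did. The mean was 19.2% higher in knockdown cells, where the mean of SCD was 52.4% lower. FASN and ACACA carry out successive steps. FASN/ACACA was 3.33 and 2.77 in FPKM in the vector libraries and 3.70 and 4.48 in the shCHD7_2 libraries. The groups of this ratio did not overlap, but libraries within each group differed by more than the nearest libraries of the groups did.

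Of the elongases, ELOVL6, which extends palmitate to the stearate that SCD desaturates, had the larger difference. It lies on chromosome 4 (chr4:110045846-110199199, minus strand) and had 119.0 and 123.0 CPM in the vector libraries and 101.8 and 98.5 in the shCHD7_2 libraries, a log2 fold change of -0.27 (SE 0.080). Its groups did not overlap, and the mean was 17.2% lower, a smaller change than that of SCD. ELOVL1, which extends very-long-chain saturated and monounsaturated acyl-CoAs and lies on chromosome 1 (chr1:43363397-43368074, minus strand), had 120.8 and 113.8 CPM in the vector libraries and 110.9 in each of the shCHD7_2 libraries. The log2 fold change of ELOVL1 was -0.08 (SE 0.080), about the size of its standard error, and its groups overlapped on the FPKM scale (86.1 and 80.9 against 82.0 and 81.0). ELOVL5 (chr6:53267398-53349179, minus strand), an elongase of polyunsaturated chains, had 0, 0, 0 and 1 read, under the floor of 3 reads (0.187 to 0.193 CPM) in each library, so no fold is given. The single ELOVL5 read implied a transcript length of 705 bases, against 3081 for the longest coding transcript in GENCODE 29. Which transcripts the authors' ELOVL5 value covers is not given in the sources used here, and a value near 0 was therefore not read as absence of ELOVL5 mRNA.

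The other desaturase with a measurable level was higher, not lower. FADS2 had 35.7 and 30.5 CPM in the vector libraries and 44.7 in each of the shCHD7_2 libraries, from 554, 481, 717 and 714 reads. Both knockdown libraries were above both vector libraries, and the log2 fold change of 0.44 (SE 0.097), or 35.3% more mRNA, was above that of 95.4% of the tested genes. Without vector replicate 1 it was 0.55 and without vector replicate 2 it was 0.33. FADS1 had 0, 7, 2 and 0 reads and was not tested. The annotated FADS1 gene (chr11:61799625-61829318, minus strand) lies within FADS2 (chr11:61792980-61867354, plus strand), with 29694 bases in common, and whether counting used strand is not given in the sources used here. That stretch includes introns, and how far the exons of the 2 genes overlap was not examined. Without strand, reads from shared exon sequence could not be told apart between FADS1 and FADS2, so both values are uncertain. The gene FEN1 overlaps FADS2 as well.

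ACSL3, which activates fatty acids for lipid droplets and phospholipids, showed no separation of the groups. It lies on chromosome 2 (chr2:222860934-222944639, plus strand) and had 104.0 and 113.8 CPM in the vector libraries and 105.9 and 104.0 in the shCHD7_2 libraries, a log2 fold change of -0.05 (SE 0.082). The shCHD7_2 libraries lay within the range of the vector libraries.

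Read as a set, none of the other 7 tested genes had a difference as large as that of SCD. With the study's criteria (fold change no smaller than 1.5, adjusted p under 0.05) applied in edgeR, 1 of the 8 tested genes was lower (SCD) and 0 were higher. Of all tested genes, 2.88% passed that threshold, 1.37% lower and 1.51% higher, and since the genes were listed with this contrast known, the count is a description. At an adjusted p under 0.05 alone, 2 were lower (SCD and ELOVL6) and 2 were higher (FASN and FADS2). Of all tested genes, 11.5% passed at that level (4.94% higher and 6.54% lower). ELOVL6 did not pass at it with DESeq2. Without vector replicate 2, only 1 vector library was left. The log2 fold changes were then -1.05 (SE 0.115) for SCD and -0.25 (SE 0.124) for ELOVL6. For FASN and FADS2 they were 0.16 (SE 0.118) and 0.33 (SE 0.135), smaller than the 0.25 and 0.44 with all libraries. The libraries of the groups did not overlap in CPM for 7 genes, 4 lower (SCD, ACACA, ELOVL1 and ELOVL6) and 3 higher (FASN, ACLY and FADS2), beside 53.7% of all tested genes (26.4% higher and 27.3% lower). The 7 tested genes other than SCD had a median log2 fold change of -0.05, within a range of -0.27 to 0.44, beside a median of 0.00056 over all tested genes.

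**Figure D2:**
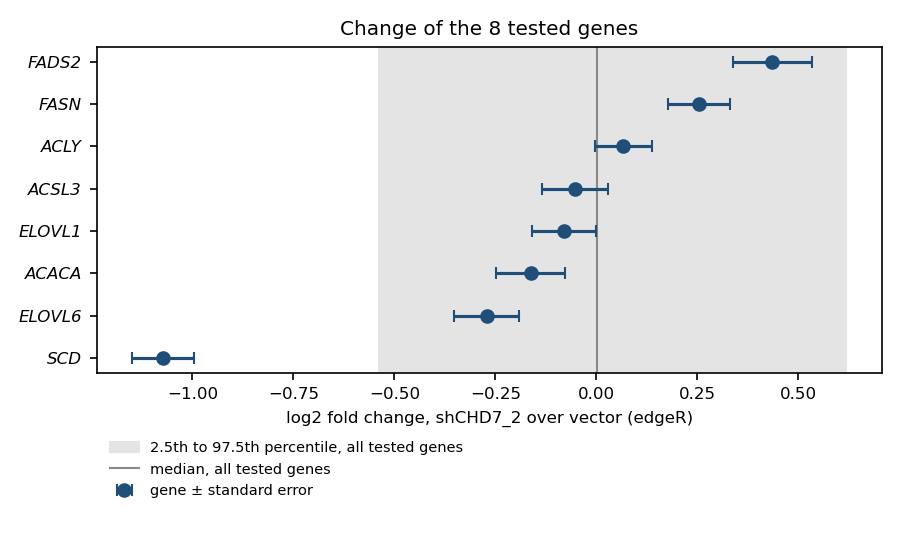
Log2 fold change (shCHD7_2 over vector, edgeR) of the 8 tested genes with its standard error; the grey band spans the central 95% of all 11955 tested genes and the vertical line is their median. SCD, at -1.07, lies outside the band of -0.54 to 0.62, and the other 7 genes lie inside it, between -0.27 and 0.44.

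Per unit of transcript length, SCD was among the most abundant mRNAs of the pathway in vector cells. The vector means, in FPKM (SD, n = 2), were 83.5 ± 3.66 for ELOVL1, 70.2 ± 0.276 for ACLY, 67.7 ± 1.42 for SCD, 38.6 ± 3.61 for FASN, 32.5 ± 0.834 for ELOVL6 and 19.6 ± 1.21 for ACSL3. ACACA and FADS2 followed at 12.7 ± 0.474 and 11.3 ± 1.34 FPKM and were not separated by more than the sum of their SDs, while every other neighbouring pair of these 8 was. In the shCHD7_2 libraries SCD was at 33.2 ± 2.74 FPKM, below FASN at 47.4 ± 0.891 and above ELOVL6 at 27.5 ± 0.544. SCD thus moved from rank 3 to rank 4, exchanging places with FASN, while ELOVL1 and ACLY remained the most abundant. FADS2, at 15.7 ± 0.127 FPKM, was above ACACA, at 11.7 ± 1.35, in knockdown cells. In vector cells the SCD level was at or above that of 92.4% of the genes listed.

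The balance of SCD against each other enzyme was then compared within libraries, a measure in which library scaling cancels. SCD/FASN was 1.62 and 1.91 in the vector libraries and 0.751 and 0.651 in the shCHD7_2 libraries, so SCD mRNA exceeded FASN mRNA in both vector libraries and was below it in both knockdown libraries. SCD/ELOVL6, for enzymes that act one after the other on palmitate and stearate, was 2.09 and 2.08 against 1.26 and 1.15. SCD/FADS2, the ratio of the 2 measurable desaturases of the set, went from 5.43 and 6.62 to 2.23 and 2.0. The ratios of SCD to ACLY, ACACA, ELOVL1 and ACSL3 were likewise lower in both knockdown libraries than in either vector library. These ratios restate the difference in SCD on another scale and are no separate evidence for it.

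**Figure D3:**
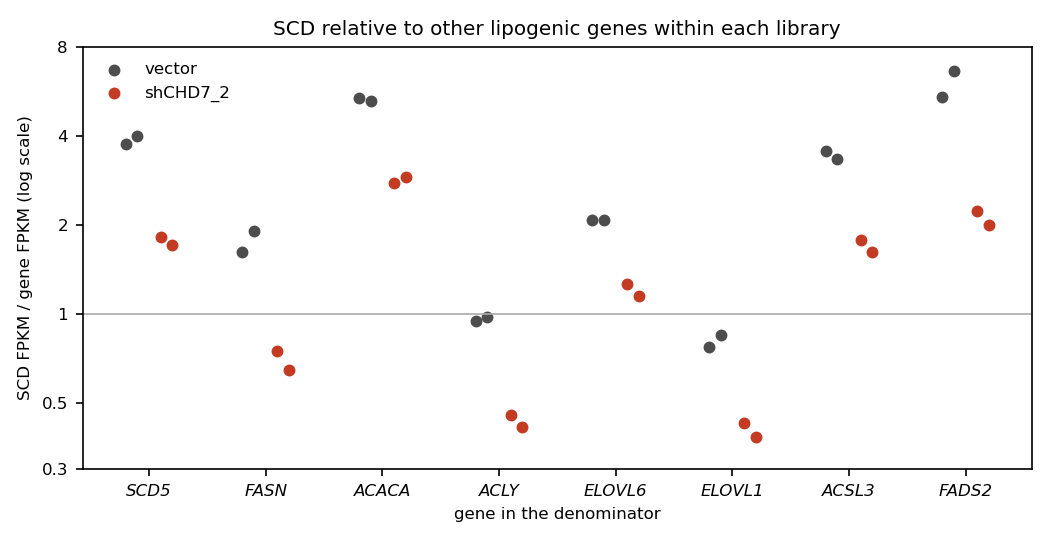
FPKM of SCD divided by that of another gene of lipid synthesis in the same library, on a log axis; each point is a library (2 vector, 2 shCHD7_2). The shCHD7_2 points lie below the vector points for all 8 denominators, and SCD/FASN passes from 1.62 and 1.91 to 0.751 and 0.651.

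SCD5, the second human stearoyl-CoA desaturase, was at a similar level in all libraries. SCD5 had 49.9 and 48.3 CPM in the vector libraries and 52.1 and 49.8 in the shCHD7_2 libraries, a log2 fold change of 0.055 (SE 0.088, adjusted p = 0.74 from edgeR). The groups overlapped. The sum of SCD and SCD5 was 84.4 and 85.9 FPKM in the vector libraries and 54.4 and 49.6 in the shCHD7_2 libraries, and SCD/SCD5 went from 3.77 and 4.01 to 1.83 and 1.71. SCD was still the more abundant of the pair in every library. Summed over all 10 genes, the pathway held 339.7 and 332.8 FPKM in the vector libraries and 316.8 and 307.9 in the shCHD7_2 libraries. Without SCD the sums were 273.0 and 264.1 against 281.7 and 276.6 FPKM, so the lower total rested on SCD.

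The genes around the pathway were examined in 8 lists, written from general knowledge but with earlier results of these data known. Their counts are therefore a description. The lists held 147 genes in all, 132 of them tested. Of these, 4 passed the threshold, all lower (3.03%, beside 2.88% of all tested genes), and 14 had an adjusted p under 0.05 alone, 7 higher and 7 lower (10.6%, beside 11.5%). The median log2 fold change over the lists was 0.0023. DESeq2 put 3 of them past the threshold, leaving out AGPAT4, and gave an adjusted p under 0.05 to 7 (ACSL1, MBTPS1, STARD4, HSD17B12, MCAT, AGPAT3 and LPCAT1), so the other genes named at an adjusted p under 0.05 alone passed in edgeR only. All 10 genes that passed at an adjusted p alone lost it in edgeR when 1 library was left out, INSIG1 without vector replicate 1 (adjusted p = 0.3) and the other 9 without vector replicate 2 (adjusted p between 0.057 and 0.4).

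Among the other genes of fatty acid synthesis, 11 of 14 were tested and 0 passed the threshold in edgeR, while 2 had an adjusted p under 0.05 alone and 3 an unadjusted p under 0.05. DESeq2 likewise gave 0 past the threshold. MCAT, the malonyl transferase of the mitochondrial pathway, had 19.6 and 17.7 CPM against 25.6 and 26.7, a log2 fold change of 0.49 (adjusted p = 0.0041 from edgeR). ACSS2, which makes acetyl-CoA from acetate, had 54.2 and 56.0 CPM against 42.6 and 46.9, a log2 fold change of -0.30 (adjusted p = 0.032 from edgeR). These 2 genes, which supply or load building blocks, changed in opposite directions.

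Of the other genes of elongation and desaturation, 11 of 16 were tested and 0 passed the threshold in edgeR or DESeq2, while 3 had an adjusted p under 0.05 alone and 5 an unadjusted p under 0.05 in edgeR. HSD17B12, the ketoacyl-CoA reductase that serves every elongation cycle, fell from 209.7 and 221.4 CPM to 176.6 and 158.4, a log2 fold change of -0.36 (adjusted p = 0.0032 from edgeR). Among the electron carriers of the desaturases, the cytochrome b5 gene CYB5A had a log2 fold change of 0.42 (adjusted p = 0.028 from edgeR, 0.16 from DESeq2), and the cytochrome b5 reductase gene CYB5R3 one of 0.27 (adjusted p = 0.036 from edgeR, 0.063 from DESeq2). The CYB5R3 value was 0.16 without shCHD7_2 replicate 2 (adjusted p = 0.28 from edgeR). The other cytochrome b5 gene, CYB5B, had overlapping groups and a log2 fold change of 0.026 (adjusted p = 0.88 from edgeR).

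Of the other acyl-CoA synthetases and uptake genes, 13 of 16 were tested. ACSL1, the paralogue of ACSL3 that activates long-chain fatty acids, fell from 101.6 and 113.3 CPM to 63.5 and 60.7, a log2 fold change of -0.79 (SE 0.087, adjusted p = 1.2e-06 from edgeR). It was the only gene of its list past the threshold in edgeR, and the groups were far apart, in contrast to those of ACSL3.

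Of the 20 lipogenic regulators, 1 passed the threshold. MBTPS1, the protease that makes the first cut in releasing the sterol regulatory element-binding proteins from the membrane, fell from 132.4 and 139.4 CPM to 50.2 and 49.3, a log2 fold change of -1.45 (SE 0.085, adjusted p = 4.5e-11 from edgeR). This was the largest difference in the 8 lists, beside -1.07 for SCD. The transcription factors themselves did not pass: SREBF1 had 63.1 and 54.7 CPM against 52.2 and 55.6, with a log2 fold change of -0.13 (adjusted p = 0.42 from edgeR). SREBF2 had 139.6 and 135.3 CPM against 115.0 and 119.4, with a log2 fold change of -0.23 (adjusted p = 0.059 from edgeR). INSIG1, which holds the precursors in the endoplasmic reticulum and is itself a target of theirs, rose from 20.4 and 24.1 CPM to 28.8 and 29.1, a log2 fold change of 0.38 (adjusted p = 0.021 from edgeR).

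The 23 genes of sterol synthesis and uptake, the other main set of targets of these factors, had log2 fold changes with a median of -0.01. STARD4, a cytosolic sterol carrier, fell from 26.0 and 27.3 CPM to 18.3 and 15.3, a log2 fold change of -0.67 (SE 0.114, adjusted p = 0.0004 from edgeR). It was the 1 gene of the list past the threshold, and it did not pass without shCHD7_2 replicate 2 (-0.54). At an adjusted p under 0.05 alone, DHCR7, the last enzyme of cholesterol synthesis in one branch, rose (0.42, adjusted p = 0.027 from edgeR), and SC5D, the sterol desaturase that acts just before it, fell (-0.30, adjusted p = 0.033 from edgeR).

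Glycerolipid assembly, which uses the acyl-CoAs, had 20 of 21 genes tested. AGPAT4, an acyltransferase of phosphatidic acid synthesis, fell from 5.15 and 6.08 CPM to 3.24 and 3.45, a log2 fold change of -0.75 (SE 0.200, adjusted p = 0.016 from edgeR), and lost its call under DESeq2 (adjusted p = 0.18) and in edgeR without vector replicate 2 (adjusted p = 0.19). AGPAT3 (0.37, adjusted p = 0.0036 from edgeR) and LPCAT1 (0.35, adjusted p = 0.0022 from edgeR), acyltransferases that add fatty acids to lysophospholipids, rose. Of fatty acid oxidation genes (25 of 26 tested) and of AMPK subunits and kinases (9 of 11 tested), 0 passed the threshold in edgeR or DESeq2 and 0 had an adjusted p under 0.05, while 4 and 2 had an unadjusted p under 0.05 in edgeR. Their log2 fold changes lay between -0.26 and 0.30 and between -0.18 and 0.21.

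**Figure D4:**
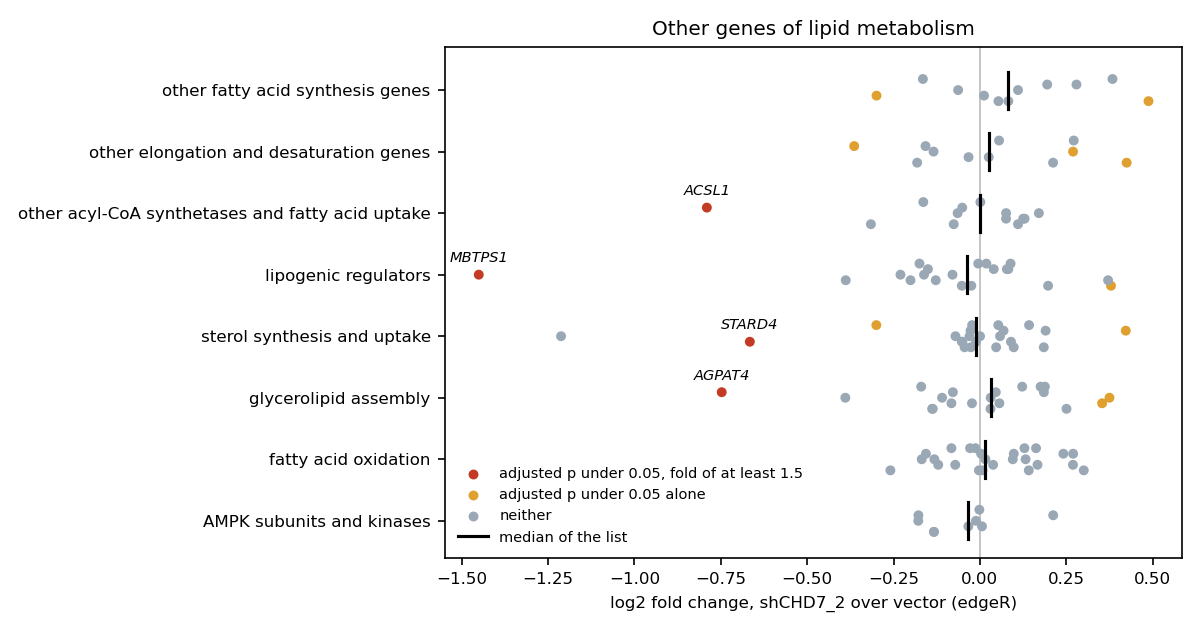
Log2 fold change (shCHD7_2 over vector, edgeR) of each tested gene in the 8 lists of lipid genes other than the 10 described; colour gives the threshold passed and black bars are list medians. The 4 genes past the threshold, MBTPS1 at -1.45, ACSL1 at -0.79, AGPAT4 at -0.75 and STARD4 at -0.67, are all lower, and every list median lies between -0.04 and 0.08.

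The tested genes with the profile most like that of SCD over the 4 libraries, by Euclidean distance between centred log2 CPM values, were CALD1 (0.055), ATL3 (0.058), GNAQ (0.078), GAP43 (0.087) and CTGF (0.091). Their log2 fold changes were -1.02, -1.07, -1.13, -1.17 and -1.15. Fold changes near that of SCD follow from this choice of genes, because the distance was taken over the same CPM values. CALD1 is an actin-binding protein, ATL3 shapes the endoplasmic reticulum, GNAQ is a G protein subunit, GAP43 is a growth cone protein and CTGF is a secreted matrix protein. None of them is in the 8 lists, which hold 132 of the 11955 tested genes, so their absence is no result about lipid genes.

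The 3′ untranslated regions were searched for the word AGCTATT, the word GAAGCTA and the word GCTATTA, because an earlier search of these same libraries had related these words to lower mRNA levels. The words are therefore not independent of the libraries, and their presence is a description. At least 1 is in the longest annotated 3′ untranslated region (3′ UTR, GENCODE 29) of 2 of the 10 genes, SCD and ELOVL6, beside 22.3% of 11688 tested genes for which one is annotated. SCD has a 3′ UTR of 3901 bases, and 44.4% of the 1304 tested genes with one of similar length (within 20%) hold a word. That of ELOVL6 has 5492 bases, a length at which 58.0% of 811 genes hold one. The sites in SCD and ELOVL6 and those in ACSL1 and MBTPS1 are shown in mRNA sense, written as DNA, with the words in capitals.
SCD, chr10:100363438-100363461, plus strand: tgtcttttgAGCTATTcacctcag
SCD, chr10:100364758-100364781, plus strand: atcaactctGAAGCTAattgtact
ELOVL6, chr4:110051001-110051024, minus strand: caaacaaagGCTATTAacacatag
ACSL1, chr4:184756100-184756123, minus strand: ttctttaaAGCTATTAagggagta
MBTPS1, chr16:84054002-84054025, minus strand: tggaagcaaAGCTATTttttttgt
In ACSL1 the words AGCTATT and GCTATTA overlap. The 3′ UTR of MBTPS1 has only 683 bases, a length at which 7.25% of genes hold a word, and STARD4 and AGPAT4 hold words in 3′ UTRs of 3853 and 7171 bases (43.8% and 67.1% of genes of similar length). All 4 genes of the lists past the threshold hold at least 1 word, ACSL1 at a length at which 20.1% of genes hold one. Of the other list genes, words are given for SCD5 only, so this is no comparison with genes that did not pass. The 8 other genes of the set hold none, among them ACACA, ELOVL1 and ACSL3 as well as FASN and FADS2, and neither does SCD5. At the 3′ UTR lengths of these genes, between 5.62% (ELOVL1) and 34.9% (ACSL3) of genes hold a word. The part of these words in the lower SCD level was not tested.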

How the data were processed

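Per the labels, RNA-seq was made from RKO cells with control or CHD7 shRNA, 2 libraries each. The authors deposited estimated counts per gene, not normalized, and FPKM values for the same 15357 genes. The submitters' processing notes name Bowtie2, RSEM, DESeq2 and hg38, with roles, versions, annotation and filters not given in the sources used here. RSEM divides reads that match several genes, so near-identical genes are uncertain. All 10 genes described had whole estimated counts.

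Counts were rounded, low genes were removed with filterByExpr, and the 11955 genes left were compared by the quasi-likelihood test of edgeR 4.0.16 (TMM scaling, R 4.3.3), with Benjamini-Hochberg adjustment. A gene passed when its fold change was no smaller than 1.5 and its adjusted p was under 0.05. The common biological coefficient of variation was 0.0579. Libraries of a group differed by more than sampling noise (chi-square per gene 3.94 and 6.06), so none was taken for a library deposited again, which does not show that they came from separate cultures. The fit was tested on simulated data.

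The genes and lists were chosen with earlier results of these data known. Named genes were the 10, CHD7, SREBF1, SREBF2, MBTPS1 and SCD5, in each list those past the threshold and up to 3 more with the smallest p among those with an adjusted p under 0.05, and the 5 nearest profiles to SCD. CYB5B was named after its values were seen. The value of 1 gene of the lists is not reported here.

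Alternatives were DESeq2 1.42.0, its size factors in edgeR, no filter, a replicate block, no fold threshold and leaving out each library. Others were limma 3.58.1 on log2(FPKM + 1) with and without a minimum mean FPKM of 1, and on log2(FPKM + 0.1) with that minimum. A crossed pairing was chosen after seeing the data. Same-numbered libraries of the groups deviated from their group means with a correlation of -0.198 over 11955 genes, so their numbers were not taken to pair them. The floor of a library was set at 3 reads, and genes not tested were given no fold of their own. Promoter windows were from RefSeq (GRCh38.p14, 13 windows for 9 of the 10 genes, none for FASN), and gene locations and 3′ UTRs from GENCODE 29. Tables and figures were made in Python 3.11.15 with pandas 2.3.3 and matplotlib 3.10.9.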

Additional observations from a re-analysis of the deposited data

How the results depend on the processing

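The log2 fold change of SCD lay between -1.08 and -1.01 under DESeq2, DESeq2 size factors, no filter, either pairing and the 3 FPKM settings, and between -1.16 and -0.995 when each library was left out. The median of the other genes of the set lay between -0.07 and 0.01. It was taken over 7 genes, or over 9 in the settings without a filter, which took in ELOVL5 and FADS1. The count of all genes past the threshold, 344, was 221 with DESeq2, 141 without a filter on low counts, 172 with limma on log2(FPKM + 1), 23 with that and no filter, 1373 without a fold threshold, and 308 to 380 when each library was left out. The 4 genes of the lists became 2 without a filter on low counts, 2 with limma on log2(FPKM + 1), 2 on log2(FPKM + 0.1), 1 on log2(FPKM + 1) with no filter, 14 without a fold threshold, and 3 to 4 when each library was left out, AGPAT4 being lost without vector replicate 2 and STARD4 without shCHD7_2 replicate 2. With a block for the replicate number, 329 genes passed (324 of them among the 344), SCD was at -1.07, the median of the other genes was -0.05 and the same count of 4 list genes passed. With the pairing crossed, chosen after seeing the data, 423 genes and 4 list genes passed. The causes of these differences were not tested. CHD7 kept its direction but was under the fold threshold in the 3 FPKM settings (-0.51, -0.58 and -0.51), STARD4 failed under 5 of 12 settings (at the smallest, -0.42), AGPAT4 under 4 of the 10 that gave it a value (-0.25) and ACSL1 under 1 of 12, none with a change of direction, while ACSL3, which did not pass, ran from -0.12 to 0.01. With 2 libraries per group, small differences such as those of ACLY, ACACA, ELOVL1 and ACSL3 were not resolved. ELOVL5 and FADS1 had too few reads to be compared.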
